A study of Arabidopsis thaliana with 4 samples.

Results

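BGLU15 (AT2G44450), BGLU25 (AT3G03640) and BGLU44 (AT3G18080) are 3 beta-glucosidase genes of Arabidopsis thaliana, found by their platform symbol, and each had 1 probe set of its own among the 22746 probe sets not used as controls. They belong to glycoside hydrolase family 1 (GH1), which has 48 genes in the gene table used here. Of these, 22 had a probe set annotated to that gene alone and 9 of the 22 lay above the signal filter, the 3 genes included. The 3 were selected on their measured signals on these same 4 arrays: they are the GH1 genes that passed the test between the mutant lines. Their own levels and differences are therefore given as a description, without a p-value.

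GH1 enzymes cut a terminal glucose, or in some members another sugar, from a small molecule or a short sugar chain. Plants store hormones, flavonols, lignin precursors and defence compounds as glucosides, and a matching beta-glucosidase releases the active part. The family also holds the myrosinases, which act on glucosinolates, and PYK10, the main protein of the ER bodies found in seedling epidermis and roots. BGLU15 is known to remove glucose from flavonol bisglycosides, the step that starts their breakdown. BGLU44 acts in vitro on short mannose chains, as derived from wall mannans, and BGLU25 falls in the same branch of the family as PYK10.

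The arrays hold RNA from whole seedlings grown for 14 days after 2 days at 4 °C, in cycles of 16 h light and 8 h dark at 24 °C. There were 2 arrays of a T-DNA line labelled as a knockout of CESTA (CES), which encodes a bHLH transcription factor acting in brassinosteroid signalling. A line labelled as a CESTA enhancer trap had 1 array and the Columbia-0 wild type had 1 array, and all 4 share the Col-0 background. The labels list no treatment. The labels tag the enhancer-trap line as a gene knockout too, but its CES signal was 4124, against 0.533 in wild type and 7.29 and 5.35 in the knockout arrays. Of the 27 Bacillus control probe sets, which have no target in the plant, none read above 10.6 on any array, and this value is used below as the limit of background. By this limit wild type and knockout were within background for CES, so the gene does not check the knockout label. On knockout replicate 1 alone the highest Bacillus control was 7.07, just under the CES signal of 7.29 there. The deposited signals had been scaled to a common level, with medians between 38.5 and 39.6. Precision is limited by how few arrays there are, and a trait of a line cannot be told apart from a deviation of its lone array. In whole seedlings, fewer cells of a type and less RNA per cell cannot be told apart either.

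BGLU15, the flavonol bisglycoside hydrolase gene, stood out in the enhancer trap alone. Its signal, on the deposited linear scale, was 79.8 in wild type, 155 in the enhancer trap, and 79.9 and 88.4 in knockout replicates 1 and 2. Wild type and both knockout arrays lay close together, and the enhancer-trap array lay well above all of them. The ratio of enhancer trap to wild type was 1.94, and that of enhancer trap to the knockout mean of 84.1 ± 5.97 (SD, n = 2) was 1.84. On the log2(signal + 1) scale the enhancer trap was 0.95 above wild type (SE 0.248), whereas the knockout mean was 0.07 away from wild type (SE 0.215). The gap between wild type and knockout was smaller than the gap of 0.14 between the knockout replicates.

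BGLU44, the mannosidase-type gene, was likewise highest in the enhancer trap, with the steadiest replicates of the 3. Its signal was 528 in wild type, 774 in the enhancer trap, and 485 and 491 in the knockout arrays. The enhancer-trap array again stood alone, and both knockout arrays lay just under wild type. The enhancer trap was 1.47 times wild type and 1.59 times the knockout mean of 488 ± 4.45 (SD, n = 2). The log2 difference was 0.55 from wild type to enhancer trap (SE 0.179) and -0.11 from wild type to knockout (SE 0.155). The second difference exceeds the gap of 0.02 between the knockout arrays but not its own fitted SE, so wild type and knockout are not separated for BGLU44.

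BGLU25, the gene from the PYK10 branch, had a different order. Its signal was 159 in wild type, 188 in the enhancer trap, and 137 and 108 in the knockout arrays. The enhancer trap was highest and both knockout arrays were lowest, with wild type between them. The enhancer trap was 1.18 times wild type, and the knockout mean of 122.7 ± 20.3 (SD, n = 2) was 77.1% of it. The log2 difference was 0.24 for enhancer trap against wild type (SE 0.226) and -0.38 for knockout against wild type (SE 0.196). The first is smaller than the gap of 0.34 between the knockout replicates, and the second is about as large as that gap, so wild type is not clearly separated from either line for BGLU25.

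**Figure D1:**
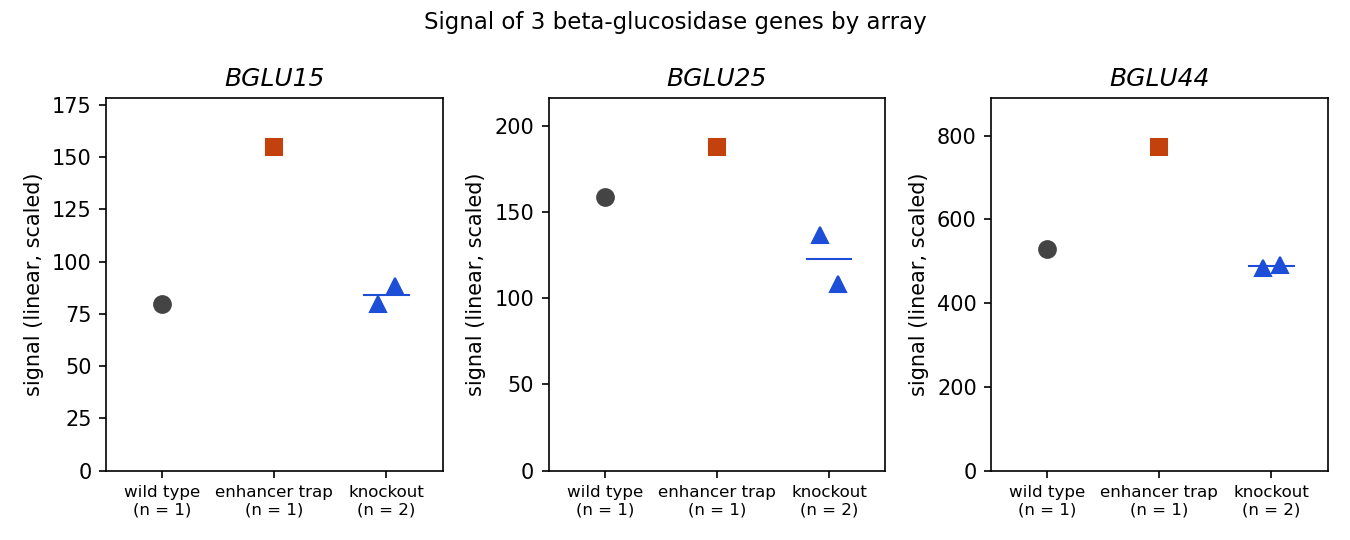
Signal (linear, as deposited) of BGLU15, BGLU25 and BGLU44 by array; points are single arrays, and the bar marks the mean of the 2 knockout arrays. The enhancer-trap array is highest in all 3 panels, at 155, 188 and 774, while wild type lies with the knockout arrays for BGLU15 and BGLU44 and above them for BGLU25.

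The 3 genes have in common that the knockout lay below the enhancer trap. The log2 difference between these lines was -0.88 for BGLU15 (SE 0.215), -0.62 for BGLU25 (SE 0.196) and -0.66 for BGLU44 (SE 0.155). For BGLU15 and BGLU44 this gap came with a high enhancer-trap level and a knockout near wild type. For BGLU25 it was made of 2 smaller steps on opposite sides of wild type. In the limma fit over all probe sets 3 of 3 passed in this comparison, beside 5.99% of the 13648 tested probe sets, of which 2.74% with the knockout lower. The count was 1 of 3 in enhancer trap against wild type (BGLU15), where 4.29% of all tested probe sets passed and 2.04% passed with the enhancer trap higher, and 0 of 3 in knockout against wild type, where 0.183% did. The genes were chosen on these arrays, so nothing is read from any of these counts. Between the mutant lines 2 of 3 passed with quantile normalization or median centring, BGLU25 being the one lost, and 0 of 3 without the signal filter or without the intensity trend. The comparisons share arrays: both lines are set against the same wild-type array, and the same enhancer-trap array enters the comparison with wild type and that with the knockout.

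Set among all tested probe sets, the differences are moderate. Between enhancer trap and wild type, 3.38% of probe sets differed in either direction by at least as much as BGLU15, 12.1% by at least as much as BGLU44 and 43.5% by at least as much as BGLU25. Between the 2 knockout arrays, which carry the same label, gaps of these sizes in either direction occurred in 0.813%, 6.44% and 35.0% of probe sets. So the BGLU25 difference is of a size often met between replicates. Between knockout and enhancer trap, 3.49% of probe sets differed in either direction by at least as much as BGLU15, 7.27% as BGLU44 and 8.48% as BGLU25. Gaps of these sizes between the 2 knockout arrays occurred in 1.08%, 3.45% and 4.31% of probe sets. The genes were chosen on these same arrays, so all these shares describe size and are not tests.

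**Figure D2:**
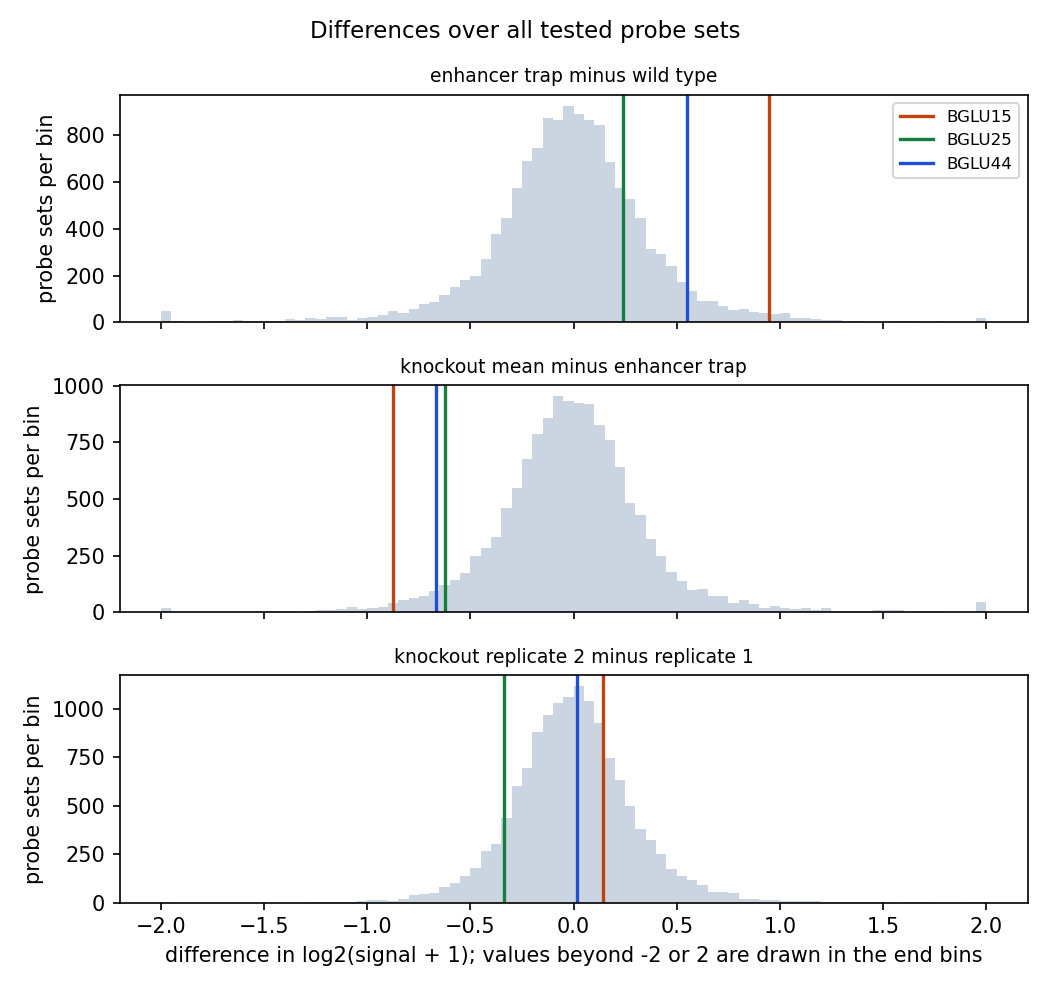
Histograms of log2(signal + 1) differences over the 13648 tested probe sets (x axis, log2 units; y axis, probe sets per bin) for enhancer trap minus wild type, knockout mean minus enhancer trap, and knockout replicate 2 minus replicate 1, with vertical lines for BGLU15, BGLU25 and BGLU44. The BGLU15 line lies in the upper tail at 0.95 in the first panel and near the centre at 0.14 in the last, while BGLU25 lies at 0.24 and -0.34.

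The other 6 GH1 genes above the signal filter are described by their levels. By limma 0 of 6 passed in enhancer trap against wild type and 0 of 6 in knockout against wild type, beside 4.29% and 0.183% of all tested probe sets, and at such shares a count of 0 says little about the family. Between the mutant lines 0 of 6 follows from how the 3 genes were selected. At an unadjusted p under 0.05 there were 0 in enhancer trap against wild type, 0 in knockout against wild type and 1 between the mutant lines. Nothing is read from these counts, since no share over all probe sets at that cut is given. Their median log2 difference was 0.07 in enhancer trap against wild type, with 3 above 0 and 3 below, beside -0.01 over all tested probe sets. In knockout against enhancer trap it was -0.15, with 5 of 6 below 0, beside -0.01 over all. The highest array was the enhancer trap for 1 of these 6 genes, as it was for 30.4% of all tested probe sets.

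PYK10 (BGLU23), the ER body enzyme, is the 1 of these 6 that was highest in the enhancer trap. Its signal was 3525 in wild type, 4112 in the enhancer trap, and 3308 and 3598 in the knockout arrays. The log2 difference of 0.22 between enhancer trap and wild type did not pass (SE 0.187, adjusted p = 0.738 by limma). Wild type lay between the knockout arrays for PYK10.

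BGLU16 was higher in all 3 mutant arrays than in wild type, at 311 in the enhancer trap and 305 and 318 in the knockout arrays against 257. Neither line passed against wild type (adjusted p = 0.644 and 0.983 by limma). BGLU46, a glucosidase of lignin precursors, went the other way, with 86.3 in wild type, 70.9 in the enhancer trap and 60.7 and 67.4 in the knockout arrays. It did not pass either (adjusted p = 0.796 and 0.953 by limma).

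BGLU33, known as BG2, releases abscisic acid from its glucose ester. It was lowest in the enhancer trap, at 70.8, against 84.6 in wild type and 87.2 and 109 in the knockout arrays. Among the other 6 GH1 genes, BGLU33 is the 1 with an unadjusted p under 0.05 between the mutant lines. Its log2 difference there was 0.46 (SE 0.225, adjusted p = 0.314 by limma), the reverse of the direction seen for BGLU15, BGLU25 and BGLU44. BGLU42, which acts in root responses to beneficial bacteria and to iron shortage, had knockout signals of 70.0 and 96.5 that enclosed both wild type (73.3) and enhancer trap (91.3). BGLU40 stayed between 67.9 and 83.5 on all arrays.

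**Figure D3:**
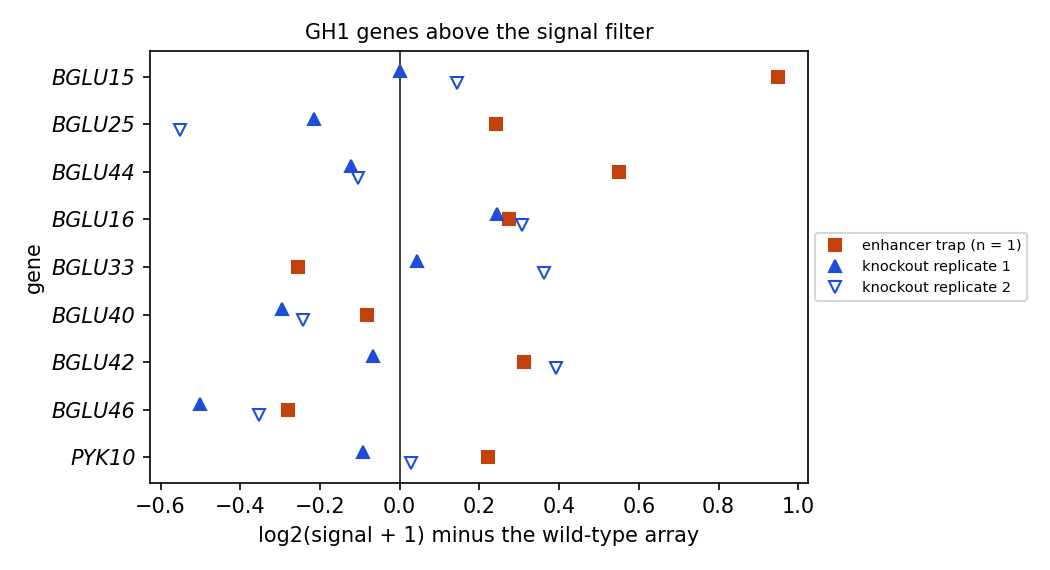
Difference of each mutant array from the wild-type array in log2(signal + 1) (x axis) for the 9 GH1 genes above the signal filter (y axis), with 1 square for the enhancer trap and 2 triangles for the knockout replicates. The enhancer trap lies above both knockout arrays for BGLU15 at 0.95, BGLU44 at 0.55 and BGLU25 at 0.24. It also lies above both for PYK10 at 0.22, BGLU40 at -0.08 and BGLU46 at -0.28. It lies below both for BGLU33 at -0.25, and between them for BGLU16 and BGLU42.

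A further 13 GH1 genes with their own probe set lay under the signal filter, and 10 of them were at or under 10.6 on every array. Among these 10 are BGLU43, BGLU28 and BGLU29, the nearest family members of BGLU44 and BGLU15 along the chromosomes. BGLU44 lies directly beside BGLU43 in gene order, and BGLU43 read 3.68 in wild type, 0.403 in the enhancer trap, and 0.649 and 10.1 in the knockout arrays. BGLU15 is followed by BGLU28 and BGLU29. BGLU28, a gene known to rise under sulfur shortage, read 8.02 in wild type, 3.68 in the enhancer trap, and 7.97 and 9.89 in the knockout arrays. BGLU29 did not exceed 3.10 on any array. No fold is given for these genes, which did not exceed the limit of 10.6. That limit was set by the wild-type array, and the highest Bacillus control on the knockout arrays was 7.07 and 7.20, which BGLU43 exceeded in knockout replicate 2 and BGLU28 in both. BGLU45 and BGLU47, which were under the filter but above background on all arrays, ranged from 17.8 to 19.7 and from 15.3 to 24.7.

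Other neighbours in gene order did not pass the test. AT3G18060 and AT3G18050, on the BGLU43 side of BGLU44, differed between enhancer trap and wild type by -0.01 and -0.10 on the log2 scale (adjusted p = 0.996 and 0.918 by limma). AT2G44420, 3 genes before BGLU15, was at -0.44 (adjusted p = 0.772 by limma), and AT3G03610, 3 genes before BGLU25, at -0.12 (adjusted p = 0.929 by limma). These are the 4 genes above the signal filter among the 3 nearest on each side of each gene. Of all tested probe sets 4.29% passed in enhancer trap against wild type, so 4 genes without a call say little about these neighbourhoods.

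ER body genes were examined because BGLU25 is related to PYK10, the enzyme these bodies store. This list and those below were chosen with earlier results of these data known, and their p-values carry that limit. Of 13 listed genes 5 had a probe set of their own and 4 lay above the signal filter. All 4 were highest in the enhancer trap, as were 30.4% of all tested probe sets. All 4 were above wild type there, as were 48.6% of all tested probe sets. Their median log2 difference was 0.46, beside -0.01 over all tested probe sets. None passed in enhancer trap against wild type by limma, beside 4.29% of all tested probe sets. There 3 had an unadjusted p under 0.05. No share over all probe sets at that cut is given, so nothing is read from this count. In knockout against enhancer trap the median was -0.45 and 1 of 4 passed, beside 5.99% of all tested probe sets. In knockout against wild type 0 of 4 passed, also at an unadjusted p under 0.05, with a median of -0.06.

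JAL22, which encodes a jacalin-related lectin that binds the PYK10 complex, is the 1 that passed. Its signal was 490.3 in wild type, 703 in the enhancer trap, and 471 and 432 in the knockout arrays. It was lower in the knockout than in the enhancer trap by a log2 difference of -0.64 (SE 0.157, adjusted p = 0.00609 by limma), but its difference of 0.52 between enhancer trap and wild type did not pass (adjusted p = 0.108). JAL22 passed in neither comparison without the signal filter or without the intensity trend.

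JAL33, a lectin of the same family, read 1130.0 in wild type, 1478 in the enhancer trap, and 1084 and 1056 in the knockout arrays. NAI2, a structural protein of ER bodies, read 447 in wild type, 665 in the enhancer trap, and 585 and 488 in the knockout arrays. NAI1, the bHLH factor needed to form ER bodies, read 76.7 in wild type, 102 in the enhancer trap, and 64.9 and 85.8 in the knockout arrays. For NAI2 the knockout arrays lay between wild type and enhancer trap, whereas for NAI1 they lay on both sides of wild type. Differences between enhancer trap and wild type were 0.39 for JAL33 (adjusted p = 0.307 by limma), 0.57 for NAI2 (adjusted p = 0.0661) and 0.40 for NAI1 (adjusted p = 0.621).

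**Figure D4:**
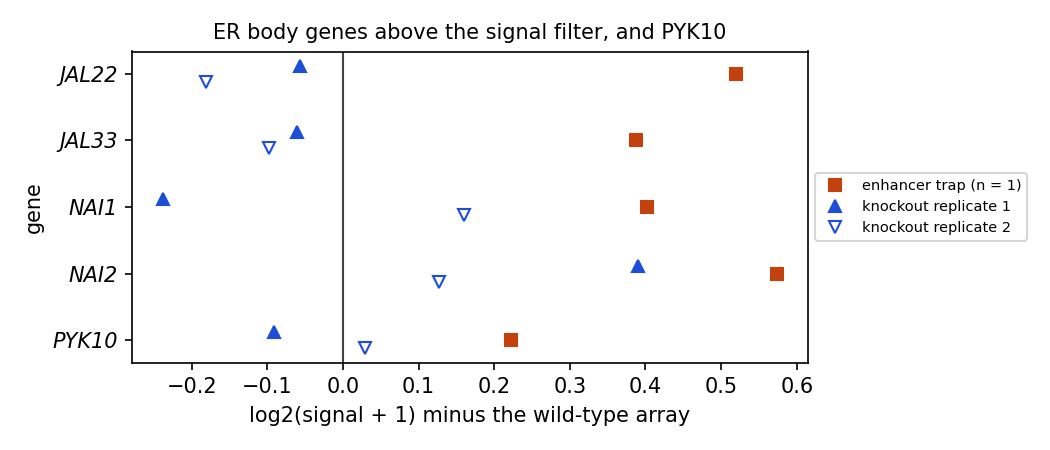
Difference of each mutant array from the wild-type array in log2(signal + 1) (x axis) for the 4 ER body genes above the signal filter and PYK10 (y axis). The enhancer-trap square is the rightmost point of every gene, between 0.22 for PYK10 and 0.57 for NAI2, and the knockout triangles lie on both sides of 0.

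Of 13 listed genes for the synthesis of flavonol glycosides, the substrates of BGLU15, 2 were above the signal filter. By limma 0 of 2 passed in any comparison, with 0 at an unadjusted p under 0.05, a count too small to be set against 4.29%, 0.183% and 5.99% of all tested probe sets. UGT78D2, which attaches glucose to flavonols, was at 62.8 in wild type, 67.4 in the enhancer trap, and 63.3 and 52.5 in the knockout arrays. UGT78D1, which attaches rhamnose, was at 23.6, 30.4, 35.2 and 29.9 in the same order. Their log2 differences between enhancer trap and wild type were 0.10 and 0.35. For the mannans on which BGLU44 may act, CSLA03, a mannan synthase gene, was the 1 of 18 listed genes above the filter, and it stayed between 209 and 224.

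Other glucoside pathways were measured through few genes. Of the 22 names listed for lignin-precursor genes, C3H and F5H were not found in the gene table, and 5 had a probe set above the filter. The median log2 difference of these 5 was -0.28 in enhancer trap against wild type and 0.03 in knockout against enhancer trap. By limma 0 of 5 passed in enhancer trap against wild type and 0 of 5 in knockout against wild type. Of all tested probe sets 4.29% and 0.183% passed there, and at such shares a count of 0 says little. At an unadjusted p under 0.05 there were 0 and 1, and nothing is read from these counts. UGT72E2, which attaches glucose to lignin precursors, was the 1 of 5 that passed in knockout against enhancer trap, beside 5.99% of all tested probe sets, at -0.60 (SE 0.174, adjusted p = 0.0261). It did not pass with median centring, without the signal filter or without the intensity trend. Its signal was 244 in wild type, 289 in the enhancer trap, and 184 and 197 in the knockout arrays, which is the order of BGLU25. Its relatives UGT72E1 (0.10, adjusted p = 0.891) and UGT72E3 (0.03, adjusted p = 0.985) did not pass by limma, nor did HCT (0.25, adjusted p = 0.461), an early enzyme of the pathway.

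Of the 17 abscisic acid genes 2 were above the filter, BGLU33 and the glucosyltransferase gene UGT71C5. By limma 0 passed in any comparison, with 1 (BGLU33) at an unadjusted p under 0.05, between the mutant lines. With 2 genes these counts are too small to be set against 4.29%, 0.183% and 5.99% of all tested probe sets. UGT71C5 was at 117 in wild type, 117.5 in the enhancer trap, and 104 and 92.8 in the knockout arrays. The lists for glucosinolate breakdown, sulfur shortage, sugar shortage and darkness, and other wall glycosidases had 0 genes above the filter by this annotation, so no statement on them is possible here.

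The tissue label was read through 2 of 8 root markers and 3 of 8 shoot markers, while 0 of 5 flower and 0 of 4 seed markers had a probe set of their own. The summed root marker signal was 3570 in wild type, 4225 in the enhancer trap and 3368 to 3681 in the knockout arrays, most of it from PYK10. The other root marker, the root-hair gene EXPA7, rose in the enhancer trap, with a log2 difference of 1.31 from wild type (SE 0.284, limma adjusted p = 0.00191), with signals of 44.7, 113, 59.3 and 83.1 in wild type, enhancer trap and knockout replicates 1 and 2. The summed shoot marker signal, from LHCB4.1, LHCB4.2 and RCA, was 18888 in wild type, 15948 in the enhancer trap and 17895 to 18915 in the knockout arrays. The root sum was thus highest, and the shoot sum lowest, on the array where BGLU15, BGLU25, BGLU44 and the ER body genes were highest. The log2 differences from wild type there were 0.22 for PYK10 and -0.23, -0.24 and -0.25 for LHCB4.1, LHCB4.2 and RCA. None of these passed by limma. PYK10 is itself a GH1 and ER body gene, so the root sum is not independent of those genes. On the enhancer-trap array the 3' probe set of GAPDH read 1.38 times its 5' probe set, and 1.70 to 2.01 times on the other arrays. A high value marks degraded RNA. For actin the same ratio was 19.7 on that array, within the 13.5 to 25.5 of the other arrays. For ubiquitin it was 2.82, within the 2.55 to 3.00 of the other arrays. The part of the tissue markers and of RNA integrity in these levels was not tested.

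Genes with the pattern most like each of the 3 were found by the distance between log2 values centred on their own mean over the 4 arrays, among 7221 other genes above the signal filter. Nearest to BGLU15 were AT4G01700 (distance 0.08), IRX15-L (0.08), a gene of xylan synthesis, and AT3G51990 (0.10). IRX15-L, for one, read 67.1 in wild type, 123 in the enhancer trap, and 68.6 and 72.4 in the knockout arrays. Nearest to BGLU44 were FACT (0.02), which encodes an acyltransferase of root waxes, ARPN (0.04), which encodes plantacyanin, and AT5G50340 (0.04). FACT read 177 in wild type, 260.2 in the enhancer trap and 165 in both knockout arrays. Nearest to BGLU25 were AT3G28220 (0.05), AT2G38640 (0.06) and AT2G23700 (0.08), and AT3G28220 read 88.3, 109, 76.9 and 62.2 in the same order of arrays.

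Such likeness over 4 arrays is common, since 18 genes lay within a distance of 0.2 of BGLU15, 81 of BGLU25 and 116 of BGLU44. The 3 beta-glucosidase genes were not each other's nearest. BGLU44 was number 82 in the order of likeness to BGLU15, at a distance of 0.30, and BGLU25 was number 1067, at 0.61. BGLU15 and BGLU44 thus resemble each other more than either resembles BGLU25, whose distance to BGLU44 was 0.35.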

How the data were processed

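One ATH1 array per RNA sample was labelled with biotin in 1 colour, per the labels' protocols. Each deposited value is a linear signal intensity per probe set. Per the submitters' processing notes, the authors used MAS5 and GCOS, whose versions are not given in the sources used here. The deposited intensities had a mean of 100.0 on each array after trimming 2% at each end, so they were already scaled. Detection calls were not used here.

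The 64 control probe sets were left out. Signals were taken as log2(signal + 1), which understates changes of dim genes, and probe sets at or above the 40th percentile of mean log2 signal (4.58) were tested. One limma 3.58.1 model (R 4.3.3) with 3 group means and an intensity trend was fitted to the 4 arrays, with Benjamini-Hochberg adjustment at 0.05, and a probe set passes where its adjusted p is under 0.05. The knockout pair gives its 1 residual degree of freedom, beside 41.8 prior ones, and stands in for the unknown spread of the lone arrays. The labels do not name separate cultures, so the spread may be technical.

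Genes were named from the platform annotation (13513 probe sets with 1 gene, 503 with several, 8730 not listed) and placed in gene order by the TAIR10.1 table, which matched 13436. Genes that share the alias PEN2 with BGLU26 were kept out of GH1. A probe set with several genes is not named, and a gene with several probe sets is represented by the brightest. Named genes are the 3 members, the GH1 genes with a probe set of their own, up to 4 per list by size of difference, and the 3 nearest patterns. Neighbours in gene order were added after their values were seen. The members and lists were chosen with earlier results of these data known. Alternatives covered the pseudocount, scaling, filter, trend and each knockout array. Plots used matplotlib 3.10.9 (Python 3.11.15).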

Additional observations from a re-analysis of the deposited data

How the results depend on the processing

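Differences of BGLU15, BGLU25 and BGLU44 kept their sign under each scaling, pseudocount and left-out replicate tried. With a pseudocount of 16, BGLU15 was 0.84 in enhancer trap against wild type and -0.77 in knockout against enhancer trap, and BGLU44 was -0.65 in the latter. With median centring BGLU44 was 0.57 in enhancer trap against wild type and -0.082 in knockout against wild type. Leaving out either knockout array gave knockout differences from wild type of 0.00 to 0.14 for BGLU15, -0.55 to -0.22 for BGLU25 and -0.12 to -0.10 for BGLU44. Against the enhancer trap they were -0.95 to -0.80, -0.79 to -0.46 and -0.67 to -0.66. With 1 knockout array no residual degree of freedom is left, so no calls were made.

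Calls depend on the fit, whose prior degrees of freedom were 41.8 as reported, 10.7 with median centring, 7.63 without the trend and 6.58 without the filter. Of BGLU15, BGLU25 and BGLU44, 0 passed without the filter or the trend in any comparison. Between the mutant lines 2 of the 3 passed with quantile normalization or median centring. With median centring 0 passed in enhancer trap against wild type, against 1 as reported. Of all probe sets, 586, 25 and 817 passed as reported in enhancer trap against wild type, knockout against wild type and knockout against enhancer trap. With quantile normalization these were 644, 34 and 867, and with median centring 316, 2 and 511. Without the filter they were 153, 0 and 231, and without the trend 205, 2 and 335. In knockout against enhancer trap, quantile normalization gave 1 other GH1 gene in place of 0 and 2 ER body genes in place of 1, while 0 ER body genes passed without the filter or the trend. The 1 lignin-precursor call there became 0 with median centring, without the filter or without the trend. The counts for all probe sets and for the 3 genes under other settings were chosen after seeing the data. No paired analysis was possible because the groups share fewer than 2 replicate numbers.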
